A study of Mus musculus with 8 samples.

Results

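The 43 genes described here encode enzymes and regulators of amino acid breakdown and of the urea cycle, and the measurement is where the nuclear receptor ERRα sat near them on the chromatin of mouse liver and skeletal muscle. The 43 were fixed by gene name, out of 21887 protein-coding genes of the RefSeq annotation. They fall into 6 groups, namely the urea cycle (5 genes), aromatic amino acids (5), glutamate and transamination (7), serine, methionine and sulfur metabolism (7), proline, ornithine and lysine (4) and branched-chain amino acids (15). A gene was called bound in a list where at least 1 peak annotated to it was centred within 20 kb of its transcription start site (TSS). Each peak is annotated to the gene with the nearest TSS, so a peak near a member can carry the name of a neighbour. By this rule 38 of the 43 were bound in at least 1 of the 4 lists, against 66.8% of all protein-coding genes.

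ERRα chromatin immunoprecipitation sequencing (ChIP-seq) was run on 4 groups of male C57BL/6N mice aged 2 to 3 months, with 1 library per group and 1 peak list for each. WT liver and ERRα3SA liver were each pooled from 2 mice, and WT muscle and ERRα3SA muscle, which is gastrocnemius and soleus, were each pooled from 5 mice. The labels give 3 immunoprecipitations combined in each sample, where the study's methods count 4 per genotype for liver. Tissues were collected at zeitgeber time 9, and the same anti-ERRα antibody was used in the 4 groups. ERRα3SA mice carry ERRα with 3 amino-terminal phosphosites mutated, which slows the breakdown of the protein, so that the genotypes differ in the amount of ERRα as well as in its sequence. With 1 library per group there is no replicate check and no test between genotypes or tissues. The lists hold no read counts, so the sequencing depth behind each peak is unknown.

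The lists held 21813 peaks in WT liver, 29040 in ERRα3SA liver, 25427 in WT muscle and 50647 in ERRα3SA muscle, and peaks were ranked by score within a list. A peak at 1% has a score that places it in the top 1% of its list, and a small percentage therefore marks a strong peak, although a longer list gives the same rank a smaller percentage. Tied scores take the best rank of the tie, and 33.6% of WT muscle and 35.2% of ERRα3SA muscle peaks share the lowest score. These stand at 66.4% and 64.8%, the weakest percentages possible there, while liver ranks run to 99.5%. Such a muscle peak cannot be read as stronger than a liver peak at a larger percentage. Of 10 skeletal muscle marker genes, 4 had a peak in the top 5% of the WT muscle list and 6 in that of ERRα3SA muscle, against 0 in either liver list. None of 10 hepatocyte markers had a top 5% peak in any list. Of these, 6 were bound in WT liver (30.0% of all protein-coding genes) and 7 in ERRα3SA liver (37.7%). In muscle 3 were bound in WT (34.5%) and 6 in ERRα3SA (48.0%). Of the muscle markers, 6 were bound in WT liver, 5 in ERRα3SA liver, 8 in WT muscle and 9 in ERRα3SA muscle.

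ERRα is an orphan nuclear receptor that binds the extended half-site known as the ERR response element (ERRE) and controls genes of mitochondrial energy metabolism. Amino acid breakdown feeds that metabolism: transaminases move the amino group to glutamate, the carbon skeletons enter the tricarboxylic acid cycle, and in liver the nitrogen leaves as urea. Branched-chain amino acids are unusual in that their first step, transamination by Bcat2, takes place largely outside the liver, with muscle a major site, and the later mitochondrial steps run in both tissues.

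Both aspartate aminotransferases had strong ERRα peaks in all 4 lists, and in muscle the strongest of the set. These enzymes, cytosolic Got1 and mitochondrial Got2, are the aminotransferases of the malate-aspartate shuttle, which carries reducing equivalents into mitochondria. Got1 (gene ID 14718) had its best peak at the promoter in every list, in the top 1.1% in WT liver, 0.671% in ERRα3SA liver, 0.263% in WT muscle and 0.105% in ERRα3SA muscle. Got2 (gene ID 14719) had its best peak in its first kilobase of gene body, annotated as intronic, in the top 1.47%, 1.39%, 0.503% and 0.0987% of the same lists. In WT liver Ahcy and Gnmt ranked above both, and in ERRα3SA liver Hpd and Gnmt ranked between them.

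The Got1 peaks spanned 2137 to 2484 bases (GRCm38, chr19:43523529-43526012 in WT liver) around the TSS of this minus-strand gene. No ERRE with the letters TCAAGGTCA, searched on both strands, lay in the central 300 bases of any of the 4 Got1 promoter peaks, but each whole interval held 3. They are shown because they lie under a peak that ranked in the top 2% of all 4 lists. Their centres are 451 bp downstream, 450 bp upstream and 789 bp upstream of the annotated TSS. Each line gives 40 flanking bases on either side in lower case and the match in capitals, read 5′ to 3′ on the minus strand.
Got1, chr19:43524110-43524198: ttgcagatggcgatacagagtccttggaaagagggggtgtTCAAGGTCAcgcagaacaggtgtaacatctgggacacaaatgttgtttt
Got1, chr19:43525011-43525099: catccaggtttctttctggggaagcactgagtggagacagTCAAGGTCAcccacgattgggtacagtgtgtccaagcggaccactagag
Got1, chr19:43525350-43525438: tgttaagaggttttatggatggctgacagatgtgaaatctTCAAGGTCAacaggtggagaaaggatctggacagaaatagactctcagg
None of the 3 matches is repeat-masked. Wide intervals hold the motif more often, so the comparison is with intervals within 25% of the same width in the same list. At least 1 match was present in 36.7% of 90 such intervals in WT liver, 41.7% of 288 in ERRα3SA liver, 22.8% of 149 in WT muscle and 29.6% of 379 in ERRα3SA muscle. At least 3 matches were present in 2.22%, 1.74%, 1.34% and 0.792% of them. The Got2 peak held no TCAAGGTCA anywhere in its interval (chr8:95886496-95888746 in WT liver), and the only match of Got2 lay in a separate liver peak 15281 bp upstream.

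A selection of the other matches is shown, 1 for each of 7 genes of the branched-chain, sulfur, ornithine and transaminase groups. Matches that overlap an annotated exon were left out, and of the matches not shown several are repeat-masked. The capitals again mark TCAAGGTCA, and the strand given is that on which it reads.
Bhmt, chr13:93637785-93637873, minus strand: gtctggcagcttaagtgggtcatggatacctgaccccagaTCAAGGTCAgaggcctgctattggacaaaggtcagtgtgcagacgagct
Oat, chr7:132576679-132576767, minus strand: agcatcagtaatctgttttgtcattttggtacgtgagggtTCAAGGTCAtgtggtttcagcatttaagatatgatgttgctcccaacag
Got2, chr8:95903602-95903690, plus strand: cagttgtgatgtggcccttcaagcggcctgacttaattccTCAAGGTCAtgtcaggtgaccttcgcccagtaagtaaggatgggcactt
Gpt2, chr8:85478697-85478785, plus strand: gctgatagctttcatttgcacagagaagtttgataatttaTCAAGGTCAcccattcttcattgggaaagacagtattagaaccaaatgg
Auh, chr13:52932684-52932772, minus strand: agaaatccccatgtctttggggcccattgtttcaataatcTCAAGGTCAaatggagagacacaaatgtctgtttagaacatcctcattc
Bckdha, chr7:25655483-25655571, plus strand: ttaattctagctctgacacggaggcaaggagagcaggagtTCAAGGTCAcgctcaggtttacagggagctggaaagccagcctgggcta
Bckdhb, chr9:83925714-83925802, plus strand: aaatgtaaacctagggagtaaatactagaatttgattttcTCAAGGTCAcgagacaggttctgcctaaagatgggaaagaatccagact
The Bhmt match lies 71 bp upstream of the TSS and the Oat match 325 bp upstream. Bhmt is the only one of the 34 member genes with an entry in the RefSeq promoter table whose promoter window, from 250 bases before to 50 after the start, held TCAAGGTCA, and 0.423% of all 32851 promoter windows did. The Auh match lies in peaks of all 4 lists. The Bckdha match, in peaks of both livers and of ERRα3SA muscle, is repeat-masked, and the Bckdhb match was in an ERRα3SA liver peak alone.

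**Figure D1:**
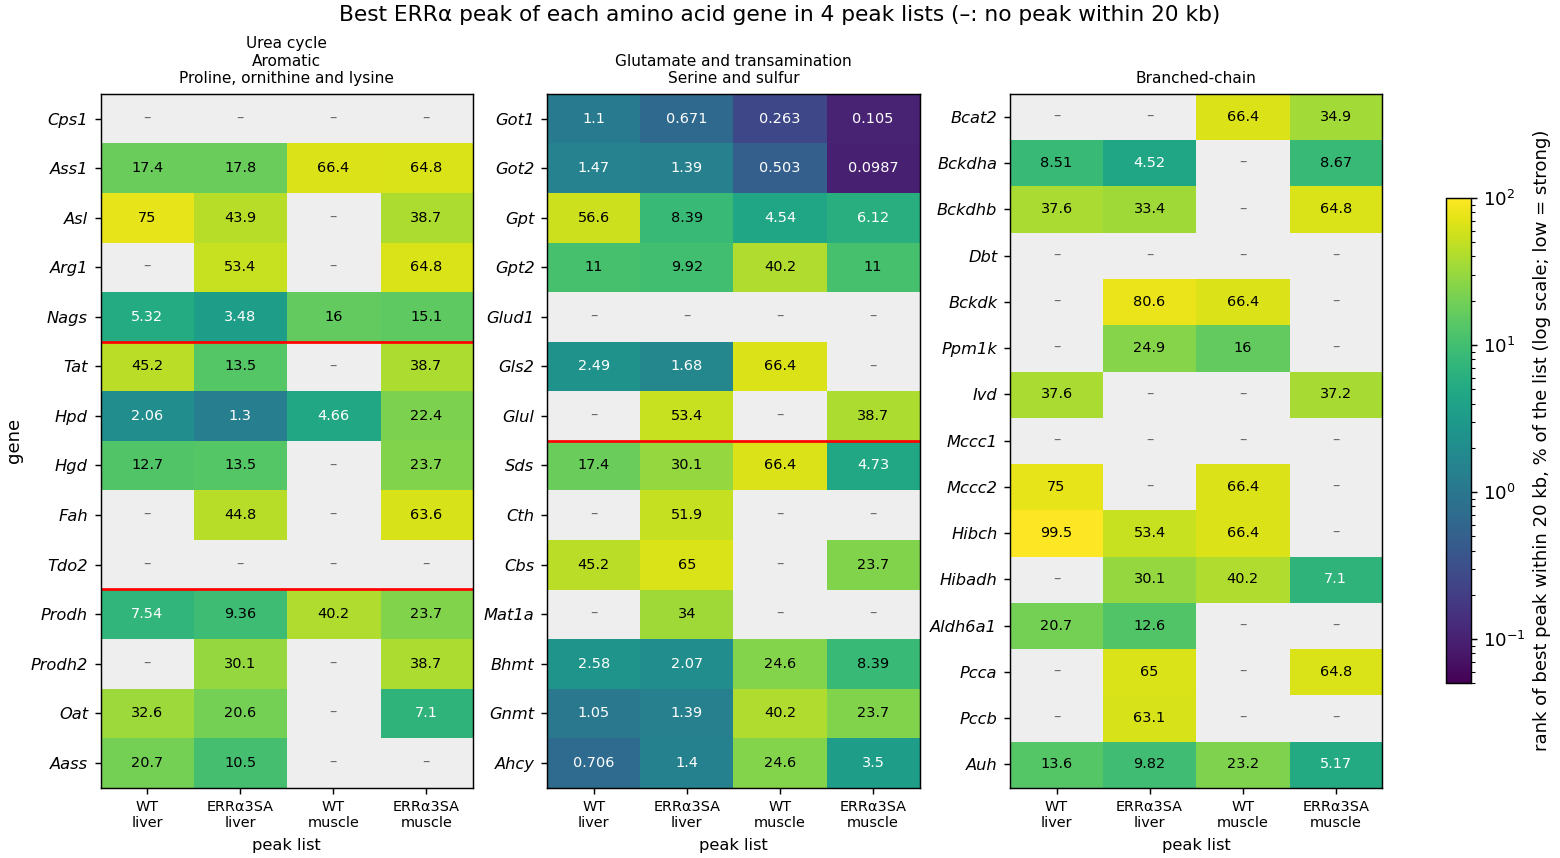
Best ERRα peak within 20 kb of each of the 43 genes in the 4 lists, by gene group (red lines part the groups). Each cell prints the rank as a percentage of the list, the colour gives it on a log scale with dark cells strong, and grey cells have no peak; Got1 and Got2 are dark in all 4 lists, and the branched-chain genes at the right have only 1 cell at or under 5%, Bckdha in ERRα3SA liver.

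More of the 43 genes were bound than of protein-coding genes at large in each list, and the distance was greatest in ERRα3SA liver. WT liver had 26 bound genes, or 60.5% (95% Wilson interval 45.6 to 73.6%), against 30.0% of all protein-coding genes. ERRα3SA liver had 35, or 81.4% (67.4 to 90.3%), against 37.7%. WT muscle had 20, or 46.5% (32.5 to 61.1%), against 34.5%. ERRα3SA muscle had 28, or 65.1% (50.2 to 77.6%), against 48.0%. The intervals cover counting error only. In WT muscle the background share lies inside the interval. The background also holds genes that no peak in any list is annotated to. Of the 19188 genes named in any list, 39.2% were bound in WT liver and 49.2% in ERRα3SA liver. In WT muscle 45.1% of them were bound and in ERRα3SA muscle 63.5%. Of the 40 members named in any list, 26, 35, 20 and 28 were bound in the same order. Members stayed above in each list, and the distance in both muscle lists was smaller than against all protein-coding genes. In muscle the call rests on low-scoring peaks. The scale of the score is not given in the sources used here, and 84.0% of WT muscle and 84.5% of ERRα3SA muscle peaks scored under 50, against 62.4% and 55.2% in liver, so a fixed limit is stricter in muscle. With scores of 50 or more, 18 members were bound in WT liver (41.9%, against 14.9% of all protein-coding genes), 26 in ERRα3SA liver (60.5%, against 22.0%), 4 in WT muscle (9.3%, against 8.07%) and 12 in ERRα3SA muscle (27.9%, against 13.5%). With scores of 100 or more the members numbered 13 (background 8.02%), 18 (11.9%), 3 (2.87%) and 4 (5.5%) in the same order.

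Assignment mattered too. When any peak centred within 20 kb of any RefSeq TSS of a gene was counted, whichever gene it was annotated to, 32 members were bound in WT liver (background 44.6%), 38 in ERRα3SA liver (52.7%), 27 in WT muscle (49.7%) and 31 in ERRα3SA muscle (63.6%).

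The ERRα3SA lists are longer than the WT lists of the same tissue, so the counts were repeated with the top peaks of each ERRα3SA list, as many as the WT list has. In liver 34 members stayed bound at equal length, against 26 in WT liver and a background of 31.5%. In muscle 20 members were bound at equal length, against 20 in WT muscle and a background of 31.9%. Both cuts fall among peaks of tied score, of which those earlier in the list were kept, so the counts depend on that order. The best peaks of Asl, Tat, Glul and Prodh2 in muscle, and of Cbs and Pcca in liver, are in those ties.

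Among bound members the median best rank was 15.5% in WT liver and 17.8% in ERRα3SA liver, against 37.6% and 34.0% over all bound protein-coding genes. In muscle the members' medians were 40.2% in WT and 23.7% in ERRα3SA, against 39.1% and 23.7%. Within 5 kb the ERRα3SA liver median was 28.7%, weaker than the 23.7% of ERRα3SA muscle. Peaks in the top 5% of the list were held by 7 members in WT liver (2.7% of all protein-coding genes), 9 in ERRα3SA liver (3.49%), 4 in WT muscle (3.15%) and 4 in ERRα3SA muscle (5.5%). In all, 11 members had a top 5% peak in some list, a count for which the share of all protein-coding genes was not computed.

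The methyl and sulfur cycle supplied a set of strong liver peaks away from promoters. Ahcy, which hydrolyses S-adenosylhomocysteine, had the strongest member peak of WT liver, at 0.706%, in an intergenic interval 7659 bp upstream of the TSS (chr2:155081576-155082736). The same site ranked at 1.4% in ERRα3SA liver, 24.6% in WT muscle and 3.5% in ERRα3SA muscle. Gnmt, a glycine methyltransferase of the same cycle, had a peak 6612 bp upstream at 1.05% in WT liver and one at 1.39% in ERRα3SA liver, in intervals annotated to the transcript end of Cnpy3 (chr17:46735271-46736284 in WT liver). Its best muscle peaks lay elsewhere, at 40.2% in WT and 23.7% in ERRα3SA. A second Gnmt liver site, at the transcript end of Pex6, ranked at 11.7% in WT and 2.64% in ERRα3SA.

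Bhmt, which remethylates homocysteine with betaine, had its best liver peak about 4 kb upstream, at 2.58% in WT and 2.07% in ERRα3SA. ERRα3SA muscle had a peak at the same site at 8.39%, and the best WT muscle peak, at 24.6%, lay in an intron. The promoter peaks of Bhmt that hold the ERRE printed above ranked much lower, at 57.4% in WT liver and 51.1% in ERRα3SA liver. Sds, which deaminates serine, stood at 17.4% and 30.1% in the livers and 66.4% in WT muscle, and at 4.73% in ERRα3SA muscle, in an interval at the transcript end of Plbd2. Cbs was bound in 3 lists at 23.7 to 65.0%, and Cth and Mat1a in ERRα3SA liver alone, at 51.9% and 34.0%.

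Among the aromatic genes Hpd stood apart. Hpd, the dioxygenase that turns 4-hydroxyphenylpyruvate into homogentisate, had an intergenic site about 12 kb upstream in all 4 lists, at 2.06% in WT liver, 1.3% in ERRα3SA liver, 4.66% in WT muscle and 22.4% in ERRα3SA muscle. Muscle thus had a peak of this tyrosine gene in both genotypes, with the weaker rank in ERRα3SA. Hpd also had promoter peaks in both livers, at 25.3% and 22.8%, and in neither muscle list. Tat, the tyrosine aminotransferase, ranked at 45.2% in WT liver and 13.5% in ERRα3SA liver, at a shared site about 8 kb upstream. Hgd was at 12.7% and 13.5% in liver and Fah was bound in the ERRα3SA lists alone.

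Gls2 and Gpt were the other members of the glutamate group with a top 5% peak. Gls2, the liver-type glutaminase, had an intronic peak about 7 kb into the gene at 2.49% in WT liver and 1.68% in ERRα3SA liver (chr10:128200933-128202354 in WT liver), a minimum-score peak at 66.4% in WT muscle and no peak in ERRα3SA muscle. Gpt, the cytosolic alanine aminotransferase, had a promoter peak in all 4 lists. It ranked at 56.6% in WT liver, 8.39% in ERRα3SA liver, 4.54% in WT muscle and 6.12% in ERRα3SA muscle, so WT liver was the weak one of the 4. Gpt2, its mitochondrial counterpart, was at 11.0%, 9.92%, 40.2% and 11.0%. Its best liver peak, about 14 kb upstream, was not in muscle, and another site about 11 kb into the gene was in all 4 lists.

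In the urea cycle the strongest peaks belonged to Nags, which makes the N-acetylglutamate that activates the first enzyme of the cycle. Its best peaks were at 5.32% in WT liver, 3.48% in ERRα3SA liver, 16.0% in WT muscle and 15.1% in ERRα3SA muscle. The ERRα3SA liver interval ran over 4233 bases (chr11:102144489-102148721) and overlapped intervals that were separate in WT liver, whose centres lay more than 300 bp away. It held 4 TCAAGGTCA matches, of which those 735 and 515 bp upstream of the TSS are repeat-masked. Such wide intervals often hold the motif. Of 11 intervals of similar width in the ERRα3SA liver list, chosen as for Got1, 72.7% held a match and 18.2% held 3 or more. Ass1 was bound in all 4 lists at 17.4 to 66.4% and Asl in 3 lists at 38.7 to 75.0%. By the annotation Arg1 was bound in the ERRα3SA lists alone, at 53.4% and 64.8%. Arg1, the arginase that releases urea, also had a stronger site in both livers just outside the limit, 21648 bp upstream at 5.07% in WT and 21656 bp upstream at 3.75% in ERRα3SA. Cps1, which catalyses the first step of the cycle, had no peak within 20 kb in any list, its nearest annotated peak being 34959 bp from the TSS.

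**Figure D2:**
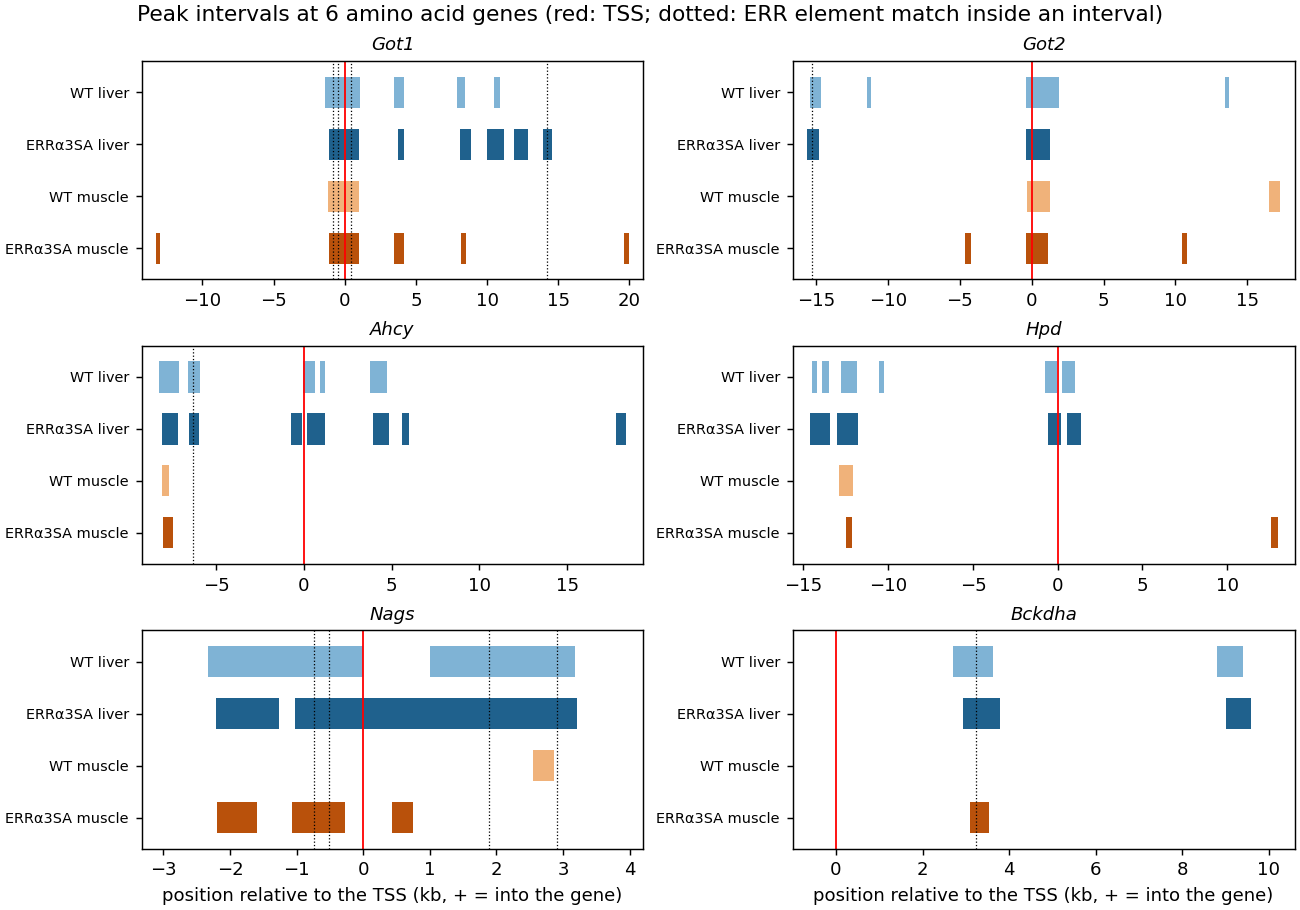
Peak intervals within 20 kb of the TSS of 6 genes, drawn to scale by distance from the TSS in kb with positive values into the gene. Bars are intervals in the 4 lists, the red line is the TSS and dotted lines are ERRE matches inside any interval; Got1 and Got2 have a wide interval at the TSS in all 4 lists, the Hpd and Ahcy site in all 4 lists lies upstream, and the widest Nags interval is that of ERRα3SA liver, which runs across the TSS.

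Of the proline, ornithine and lysine genes, Prodh, the proline dehydrogenase, was bound in all 4 lists, at 7.54% in WT liver, 9.36% in ERRα3SA liver, 40.2% in WT muscle and 23.7% in ERRα3SA muscle. Oat, the ornithine aminotransferase, had a promoter peak at 32.6% in WT liver, 20.6% in ERRα3SA liver and 7.1% in ERRα3SA muscle, and none in WT muscle. Aass was bound in liver alone, at 20.7% and 10.5%, and, by the annotation, Prodh2 in the ERRα3SA lists alone, at 30.1% and 38.7%.

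By the annotation, the branched-chain genes had a lower share bound than the rest in 3 of the 4 lists. Their best peaks had weaker median ranks in all 4. Of 15, 7 were bound in WT liver (46.7%, 24.8 to 69.9%, background 30.0%), 10 in ERRα3SA liver (66.7%, 41.7 to 84.8%, background 37.7%), 7 in WT muscle (46.7%, background 34.5%) and 7 in ERRα3SA muscle (46.7%, background 48.0%). Of the other 28 genes, 19, 25, 13 and 21 were bound (67.9%, 89.3%, 46.4% and 75.0%), and the Wilson intervals of both sets overlap in every list. By the annotation, only in ERRα3SA liver did the branched-chain interval lie above the background share. With assignment to any RefSeq TSS, 12 of the 32 members bound in WT liver were branched-chain genes (background 44.6%). The branched-chain share in WT liver was then above that of the other members, and in the other 3 lists it was below. Median best ranks of bound branched-chain genes were 37.6%, 31.7%, 66.4% and 34.9% in WT liver, ERRα3SA liver, WT muscle and ERRα3SA muscle, against 11.0%, 13.5%, 24.6% and 23.7% for the other members and 37.6%, 34.0%, 39.1% and 23.7% over all bound protein-coding genes.

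**Figure D3:**
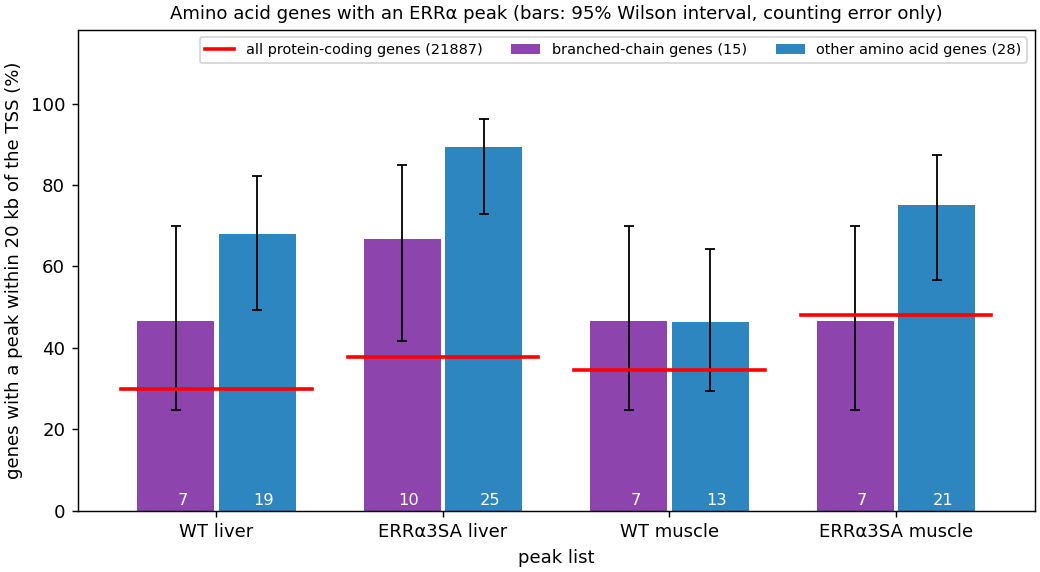
Share of the 15 branched-chain genes and of the other 28 amino acid genes with an ERRα peak within 20 kb, by list, with 95% Wilson intervals that cover counting error only and the number of bound genes at the foot of each bar. Red lines give the share of all 21887 protein-coding genes; the other members reach 89.3% in ERRα3SA liver, and the branched-chain genes in ERRα3SA muscle sit at 46.7% beside a red line at 48.0%.

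Bckdha, the E1 alpha subunit of the branched-chain ketoacid dehydrogenase that commits these amino acids to oxidation, had the only branched-chain peak in the top 5% of a list. Its intronic site about 3 kb downstream of the annotated TSS (chr7:25654974-25655824 in ERRα3SA liver) ranked at 8.51% in WT liver, 4.52% in ERRα3SA liver and 8.67% in ERRα3SA muscle. The printed match in this site lies 3234 bp from the annotated TSS and 628 bp from the nearest RefSeq TSS of the gene. WT muscle had no peak annotated to Bckdha, but with assignment to any RefSeq TSS the gene was bound there too. Bckdhb, the E1 beta subunit, was at 37.6% and 33.4% in the livers and 64.8% in ERRα3SA muscle, at different sites. Dbt, the E2 subunit, had no peak of its own within 20 kb, although peaks annotated to Rtca lay 5376 bp from its TSS in WT liver, at 75.0%, and 5265 bp from it in ERRα3SA muscle, at 64.8%.

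Bcat2, the mitochondrial transaminase of the first step, had peaks annotated to it in muscle alone, at 66.4% in WT and 34.9% in ERRα3SA. These peaks lay apart, at the promoter in WT and 1894 bp upstream, over the transcript end of Hsd17b14, in ERRα3SA. The livers had stronger peaks nearby that are annotated to 0610005C13Rik, 3185 bp from a Bcat2 TSS at 5.34% in WT and 3260 bp from it at 1.83% in ERRα3SA, so the muscle-only call is lost with assignment to any TSS. Muscle also had peaks annotated to 0610005C13Rik, farther from a Bcat2 TSS. They lay at 19663 bp and 6.07% in WT and at 19637 bp and 4.73% in ERRα3SA. By the annotation Bcat2 was the only one of the 43 genes bound in muscle and not in liver (21.8% of all protein-coding genes were), and 5 were bound in liver and not in muscle (9.83%), namely Aldh6a1, Pccb, Cth, Mat1a and Aass.

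The annotated peaks of both regulators of the dehydrogenase differed between genotypes in opposite directions in the tissues, a pattern of 1.77% of all protein-coding genes. Bckdk, the kinase that inactivates it, had a peak in ERRα3SA liver at 80.6% and in WT muscle at 66.4%, and none in WT liver or ERRα3SA muscle. Ppm1k, the phosphatase that reactivates it, had the same pattern, at 24.9% in ERRα3SA liver and 16.0% in WT muscle, with both peaks less than 1 kb into the gene and their centres within 300 bp of each other. The WT muscle peak of Bckdk carried the lowest score of its list. With peaks annotated to the neighbour Vkorc1, Bckdk had a peak within 20 kb in all 4 lists, at 45.2%, 19.3%, 66.4% and 23.7%, and the opposite pattern was lost. That of Ppm1k was not.

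Among the later steps Auh, the 3-methylglutaconyl-CoA hydratase of leucine breakdown, was the only branched-chain gene bound in all 4 lists, at 13.6% in WT liver, 9.82% in ERRα3SA liver, 23.2% in WT muscle and 5.17% in ERRα3SA muscle. The site about 3 kb upstream that holds the printed ERRE was in all 4 lists, at 13.6%, 9.82%, 66.4% and 64.8%, and the better muscle peaks lay elsewhere in each genotype. Hibadh, of valine breakdown, had a peak just inside the gene at 30.1% in ERRα3SA liver and 40.2% in WT muscle, and one 12091 bp upstream at 7.1% in ERRα3SA muscle. Aldh6a1, the methylmalonate semialdehyde dehydrogenase, was bound in liver alone at a site shared by the genotypes, at 20.7% in WT and 12.6% in ERRα3SA.

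Hibch, the hydrolase one step before Hibadh, was at 99.5% in WT liver, 53.4% in ERRα3SA liver and 66.4% in WT muscle, at 3 different places. Ivd, the isovaleryl-CoA dehydrogenase of leucine breakdown, was at 37.6% in WT liver and 37.2% in ERRα3SA muscle and in neither other list, a pattern of 2.08% of all protein-coding genes. Mccc2, a subunit of methylcrotonyl-CoA carboxylase, was bound in the WT lists alone, at 75.0% in liver and 66.4%, the lowest score, in muscle. By the annotation Pcca and Pccb, the subunits of propionyl-CoA carboxylase, were bound in ERRα3SA alone. Pcca was at 65.0% in liver and 64.8% in muscle and Pccb at 63.1% in liver. With assignment to any RefSeq TSS Pcca was bound in both WT lists as well. The best ranks of these last 5 genes thus ran from 37.2% to 99.5%.

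Genotype sharing, counted in peaks, was wider in liver than in muscle, for members and for all protein-coding genes alike. Of member peaks, 55.6% in WT liver, 39.3% in ERRα3SA liver, 32.0% in WT muscle and 14.8% in ERRα3SA muscle had a counterpart of the other genotype centred within 300 bp. Over the peaks of all protein-coding genes these shares were 49.6%, 34.1%, 23.5% and 13.1%. In liver 24 members were bound in both genotypes (22.7% of all protein-coding genes), 11 in ERRα3SA alone (15.0%) and 2, Ivd and Mccc2, in WT alone (7.29%). The 11 were Arg1, Fah, Glul, Bckdk, Ppm1k, Hibadh, Pcca, Pccb, Cth, Mat1a and Prodh2, with best ranks between 24.9% and 80.6%. A peak whose centre lay within 300 bp of one of the other genotype was found at 20 members (17.3%), of which 4 were branched-chain genes, namely Bckdha, Bckdhb, Aldh6a1 and Auh.

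In muscle 15 members were bound in both genotypes (25.6%), 13 in ERRα3SA alone (22.4%) and 5 in WT alone (8.95%), the last being Gls2, Bckdk, Ppm1k, Mccc2 and Hibch, of which 4 are branched-chain genes. A shared muscle peak was found at 8 members (10.5%), namely Got1, Got2, Gpt, Gpt2, Hpd, Ahcy, Prodh and Auh. The other 7 that were bound in both muscle lists had their peaks at different places. The best ranks of the 13 bound in ERRα3SA muscle alone ran from 7.1% at Oat to 64.8%.

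Bound in all 4 lists were 13 members (12.5%), namely Ass1, Nags, Hpd, Got1, Got2, Gpt, Gpt2, Sds, Bhmt, Gnmt, Ahcy, Prodh and Auh. By the annotation, 5 were bound in the ERRα3SA lists of both tissues and in no WT list (4.21%), namely Arg1, Fah, Glul, Pcca and Prodh2. With assignment to any RefSeq TSS, Pcca was bound in both WT lists and Arg1 and Prodh2 in WT muscle. Of the 5, Fah and Glul kept the pattern.

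The sites show the tissue pattern more directly. When peak centres within 300 bp of a neighbour were merged, the members had 165 sites and all genes 49655. Sites present in both liver lists and no muscle list made up 22 of the members' sites, 13.3% against 5.74% of all sites. Sites present in both muscle lists and no liver list numbered 0, against 2.59% of all sites. All 4 lists held 8 member sites, 4.85% against 2.85%, and these belong to the 8 genes with a shared muscle peak. Each muscle site kept in both genotypes was thus a liver site as well.

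**Figure D4:**
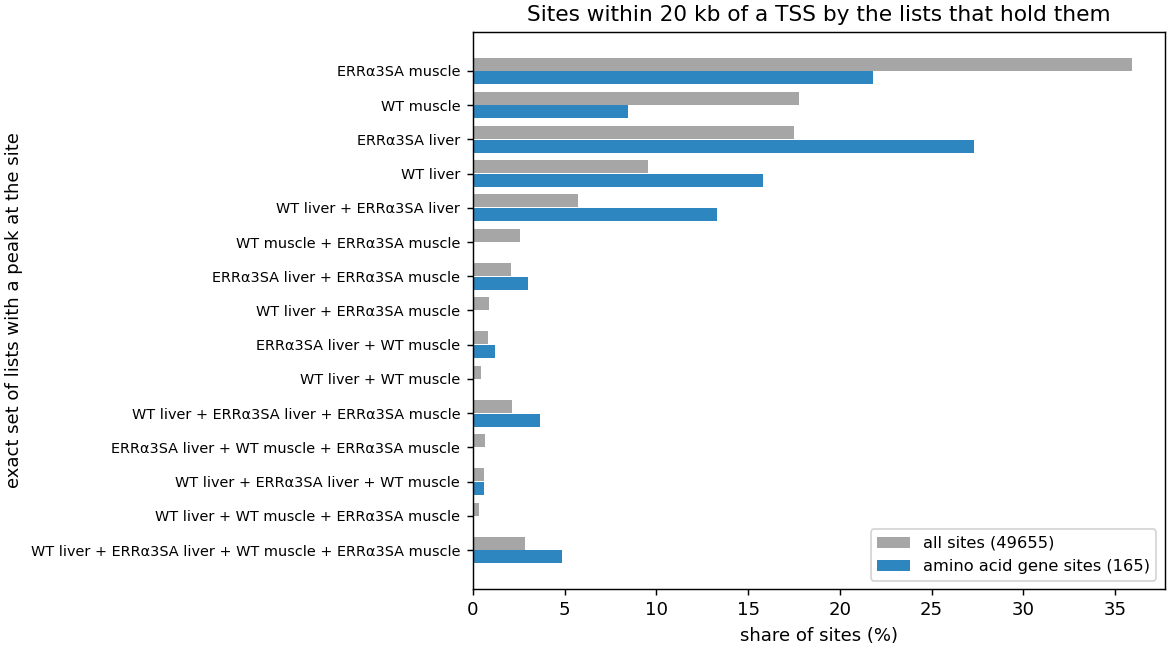
Share of sites within 20 kb of a TSS that belong to each exact combination of lists, in percent, for the 165 sites of the amino acid genes (blue) and all 49655 sites (grey). Sites of both livers alone are 13.3% of the blue set and 5.74% of the grey, and the row for both muscle lists alone has no blue bar.

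Position relative to the TSS differed between gene sets and lists. Member peaks numbered 63 in WT liver, 89 in ERRα3SA liver, 25 in WT muscle and 54 in ERRα3SA muscle, with medians of 6252, 5662, 2707 and 4958.5 bp from the TSS. In WT liver 42.9% of member peaks were intergenic, against 28.5% of the peaks of all protein-coding genes, and in ERRα3SA liver 28.1% against 26.8%. Peaks annotated as promoter were found at 5 members in WT liver (5.03% of all protein-coding genes), 10 in ERRα3SA liver (7.82%), 3 in WT muscle (6.23%) and 4 in ERRα3SA muscle (7.61%). The 3 of WT muscle were Got1, Gpt and Bcat2, and the 4 of ERRα3SA muscle were Got1, Gpt, Oat and Nags.

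Branched-chain peaks lay nearer the TSS in WT muscle than in ERRα3SA muscle. In WT muscle 5 of the 8 branched-chain peaks lay within 1 kb of the TSS, at Bcat2, Ppm1k, Mccc2, Hibch and Hibadh, with a median distance of 361.5 bp. In ERRα3SA muscle 1 of 14 did, at Auh, with a median of 7438.5 bp. The median share of CpG dinucleotides in these peaks was 0.0523 in WT muscle and 0.0109 in ERRα3SA muscle. In ERRα3SA liver 6 of 14 branched-chain peaks lay within 1 kb, and in WT liver 0 of 11. Over all protein-coding genes 27.4% of peaks lay within 1 kb in WT muscle and 18.2% in ERRα3SA muscle. The contrast in muscle rests on low-scoring peaks. The 5 WT muscle peaks within 1 kb scored 30, the lowest of the list, at Bcat2, Mccc2 and Hibch, 36 at Hibadh and 49 at Ppm1k. With scores of 50 or more, 0 branched-chain genes were bound in WT muscle.

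**Figure D5:**
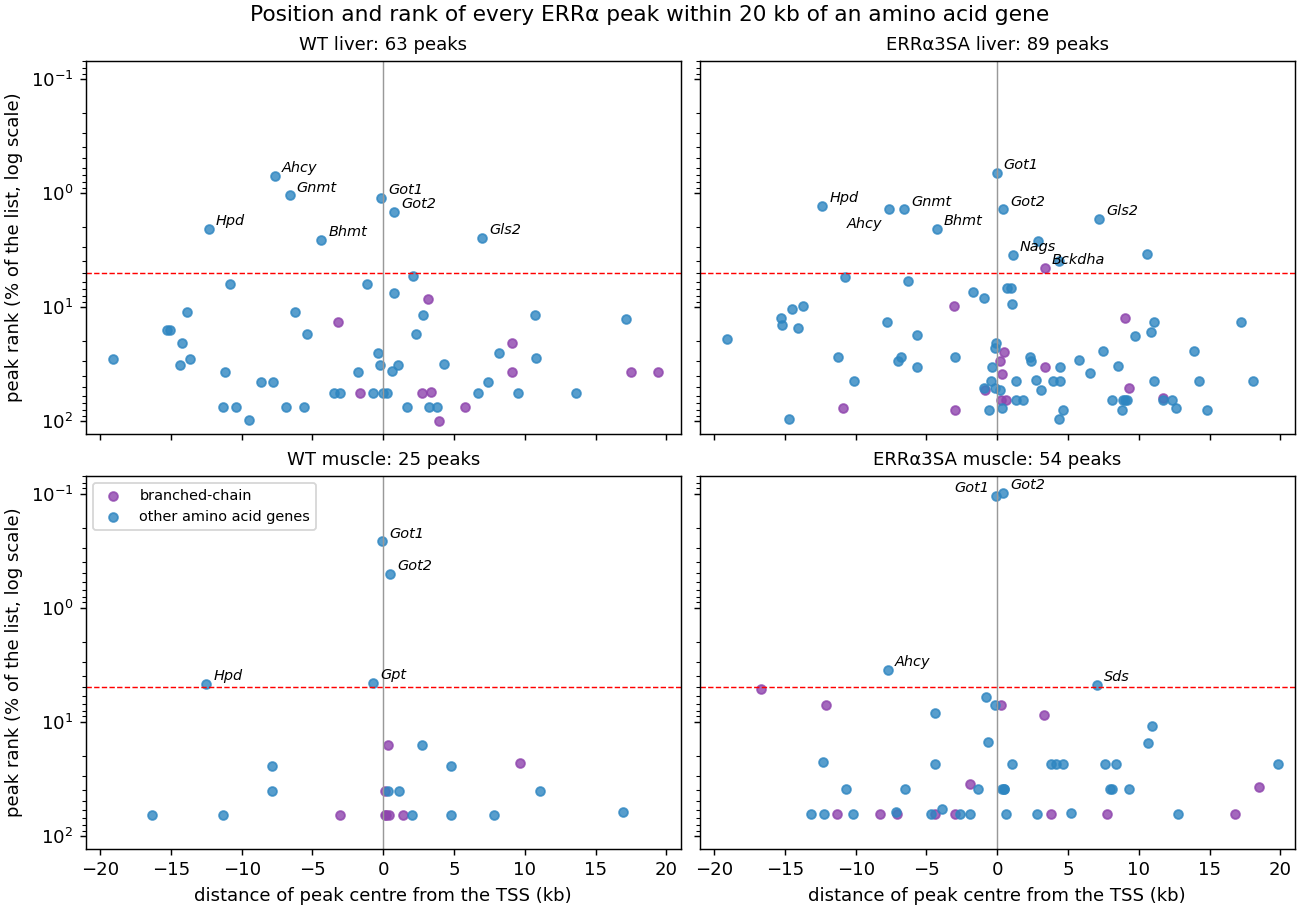
Every ERRα peak within 20 kb of an amino acid gene, by distance of its centre from the TSS in kb and by rank as a percentage of its list on a log scale with strong peaks at the top, for branched-chain genes (purple) and the others (blue). The dashed red line is the top 5%, genes above it are named at their best peak, and in both muscle panels Got1 and Got2 stand alone near the TSS at the top.

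The ERRE lay in a minority of member peaks. A member peak with TCAAGGTCA in its central 300 bases was found at 6 genes in WT liver (6.31% of all protein-coding genes), 9 in ERRα3SA liver (8.75%), 1 in WT muscle (2.16%) and 4 in ERRα3SA muscle (4.25%). Over whole intervals the count was 10 in WT liver, 13 in ERRα3SA liver, 2 in WT muscle and 6 in ERRα3SA muscle. The matching share of all protein-coding genes was not computed for whole intervals. As a share of peaks, a match in the central 300 bases was found in 11.1%, 10.1%, 4.0% and 9.26% of member peaks, against 15.2%, 14.9%, 4.38% and 4.86% of peaks of all protein-coding genes. The matches numbered 15 in 13 genes, and 6 of the 15 are repeat-masked. The single WT muscle gene was Auh. Several of the strongest peaks, those of Got2, Gpt, Gnmt and Hpd and the leading one of Ahcy, had no TCAAGGTCA in the whole interval, which says only that these letters are not in those windows. With any base at the second position, TGAAGGTCA lay in the leading Ahcy peaks of all 4 lists. It also lay in the leading Gnmt peaks of both livers and the Got2 peak of WT liver. The Gpt promoter peaks and the leading Hpd peaks had no such match.

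No peak within 20 kb was annotated to 5 members. Tdo2, Glud1 and Mccc1 were named in no list at any distance, and Cps1 and Dbt were named only for peaks farther away. Of these, Glud1, Mccc1 and Dbt did have peaks within 20 kb that carry a neighbour's name. Glud1, the mitochondrial glutamate dehydrogenase, had peaks about 13 kb from its TSS, annotated to Fam35a, at 5.91% in WT liver, 6.36% in ERRα3SA liver, 1.87% in WT muscle and 0.717% in ERRα3SA muscle. Mccc1, the partner subunit of Mccc2, had peaks less than 1 kb from a TSS in both livers, annotated to Mccc1os, at 45.2% in WT and 53.4% in ERRα3SA. Cps1 and Tdo2 had none by either assignment. At the distance limit itself, the outermost peaks counted were those of Ivd in WT liver at 19422 bp and Got1 in ERRα3SA muscle at 19821 bp, and the first left out were those of Fah in ERRα3SA liver at 20136 bp and Ass1 in ERRα3SA muscle at 20237 bp upstream. Each of those 4 genes had another peak within 20 kb in the same list, except Ivd in WT liver.

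Of another 63 genes of the same pathways, set by name, 31 were bound in WT liver (49.2%, background 30.0%), 44 in ERRα3SA liver (69.8%, background 37.7%), 23 in WT muscle (36.5%, background 34.5%) and 38 in ERRα3SA muscle (60.3%, background 48.0%). Both liver genotypes held 28 of them (44.4%, background 22.7%) and both muscle genotypes 18 (28.6%, background 25.6%). A top 2% peak was found at 4 of them. Ftcd, of histidine and folate breakdown, ranked at 0.766% in WT liver and 0.372% in ERRα3SA liver, and Shmt1, the cytosolic serine hydroxymethyltransferase, at 4.13% and 0.826%. Mat2a, the methionine adenosyltransferase of tissues outside the liver, ranked at 0.224% in WT muscle and 0.569% in ERRα3SA muscle. Mtr, the methionine synthase, was at 6.07% in WT muscle and 1.37% in ERRα3SA muscle.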

How the data were processed

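Liver and skeletal muscle of WT and ERRα3SA mice were profiled by ERRα ChIP-seq, 1 library per group, each with a pooled input. Per the submitters' processing notes and the study's methods, the authors trimmed reads with Trimmomatic (0.36), aligned them with BWA (0.7.12), marked duplicates with Picard (2.0.1), called peaks with MACS2 (2.1.1.20160309) and annotated them with HOMER (4.9.1). The deposited lists hold, for each peak, the score that the authors' peak caller gave and the signed distance to the TSS, and the authors' CpG and GC fraction of each interval. The inputs have no peak list used here.

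Every interval fitted the chromosomes of RefSeq GRCm38, and the GC fraction recomputed from that genome was within 0.00001 of the deposited one for all peaks. Each peak was annotated by HOMER to the nearest TSS. Scores were ranked within each list, with tied scores given the best rank of the tie (percentage = rank over list length). In WT muscle 10 of 25 member peaks and in ERRα3SA muscle 17 of 54 carried the lowest score, 30, so their ranks are tied. A gene was bound with a peak within 20 kb. Peaks of both genotypes were shared where centres lay within 300 bp. Background counts are over 21887 protein-coding genes, matched by gene ID, except where the 19188 genes named in any list are given. Shares carry 95% Wilson intervals, and with 1 library per group no test was run. Motif and promoter sequences are from RefSeq GRCm38. Calculations used pandas 2.3.3, scipy 1.17.1 and pysam 0.24.0, and were tested on simulated data. The alternatives were other score, distance and sharing limits, assignment to any RefSeq TSS, and ERRα3SA lists of WT length. The members, gene lists and groups were chosen with earlier results of these data known. Values in all 4 lists are given for members with a top 5% peak in any list and for bound branched-chain genes; other pathway genes are named with a top 2% peak.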

Additional observations from a re-analysis of the deposited data

Results flagged for a closer look

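In the annotated peaks of 3 branched-chain genes the genotypes differed in opposite directions in the tissues, and the difference was not tested. Bckdk and Ppm1k, 2 of the 43 members, had a peak in ERRα3SA but not WT liver and in WT but not ERRα3SA muscle, as did 1.77% of all protein-coding genes. Ivd, 1 member, had the reverse pattern, as did 2.08%. With assignment to any RefSeq TSS Bckdk was bound in all 4 lists and its pattern was lost. With 1 library per group, a peak just under the calling limit of a list and a missing peak cannot be told apart.

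Of the member peaks, 131 lay farther than 20 kb from the TSS and enter none of the counts above. They numbered 22 in WT liver, 33 in ERRα3SA liver, 20 in WT muscle and 56 in ERRα3SA muscle. Those in the top 5% of a list numbered 1 in ERRα3SA liver, at Arg1 (3.75%), where the Arg1 peak within 20 kb ranked at 53.4%, and 2 in ERRα3SA muscle. The latter were at 4.73% each, 47310 bp into Auh and 32015 bp downstream of the Oat TSS.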

How the results depend on the processing

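Higher score limits changed the counts most. With a score of at least 50, bound members fell to 4 in WT muscle and 12 in ERRα3SA muscle, and branched-chain ones to 3 in WT liver, 6 in ERRα3SA liver, 0 in WT muscle and 3 in ERRα3SA muscle. At 100, bound members numbered 13 in WT liver, 18 in ERRα3SA liver, 3 in WT muscle and 4 in ERRα3SA muscle, and branched-chain ones 2, 3, 0 and 0. The 3 WT muscle genes were Got1, Got2 and Gpt. Within 5 kb, bound members were 17 in ERRα3SA muscle, and branched-chain ones 4 in WT liver and 4 in ERRα3SA muscle. Assignment to any RefSeq TSS raised the branched-chain count of WT liver to 12, where the branched-chain share was then above that of the other members. It ended the muscle-only call of Bcat2 and the opposite pattern of Bckdk, and added Glud1, Mccc1 and Dbt to the bound members. It also made Asl, Arg1, Bckdha, Cbs, Pcca and Prodh2 bound in WT muscle and Pcca bound in WT liver. Within 5 kb the median best rank in ERRα3SA liver was 28.7%. Members with an ERRE were 10 in WT liver and 2 in WT muscle over whole intervals, with no share over all protein-coding genes computed. Shared peaks were held by 12 members in liver and 5 in muscle with centres within 100 bp, and by 12 and 5 within 5 kb. Limits on the score in the paired lists left 3 in muscle at 50, and 12 in liver and 2 in muscle at 100. The other settings (50 kb, centres within 1000 bp, shared bases, equal list length) kept each count within 1.5 times. No paired analysis was possible because each group has 1 library and no test was run. Depth is unknown, so a missing peak does not show an unbound gene.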
